A study of Mus musculus with 10 samples.

Results

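Loss of p27 at the onset of differentiation was examined by comparing the p27KO DIFF cultures (n = 2) with the WT DIFF cultures (n = 3) on autosomes 1 to 19. ATAC-seq, in which a transposase inserts adapters into open DNA, had been run on 50000 cells per library, and 1 peak list per library was used. Overlapping peaks of these 5 lists were merged into 102115 intervals, and the 72496 intervals with a peak in at least 2 lists were compared; the same rule over all 10 libraries of the series gave 96188. Each of these regions was scored by its rank within a library, from the fold enrichment of its highest peak. The rank is given as a percentile of the regions in that library, tied regions sharing their mean rank. Regions without a peak thus shared a percentile of 12.1, 14.5 and 2.05 in WT DIFF and 9.79 and 6.10 in p27KO DIFF. A low peak in 1 library can therefore rank below a missing peak in another, which also enters comparisons of ranks between groups. Differences were tested on the normal score of the percentile, in which a change of 1 equals 1 SD of a standard normal distribution.

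All libraries came from cultured neural stem cells of the adult subependymal zone (SEZ), taken from mice aged 10 weeks, on a C57BL/6J background per the study's methods. WT mice carried Cdkn1b, the gene of p27, and p27KO mice were deficient for it. DIFF cultures had been seeded on Matrigel for 2 days with FGF and then held for 24 h with no mitogen in medium with 2% serum (2 + 1 DIV). PRO cultures, used here only as libraries that the comparison had not touched, were neurospheres at 3 DIV per the labels in EGF at 20 ng/ml and FGF at 10 ng/ml (3 WT and 2 p27KO). The labels do not say whether libraries came from separate mice, nor whether PRO and DIFF libraries shared a mouse, so that p-values measure the spread between these libraries.

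p27 is an inhibitor of cyclin-dependent kinases (CDKs) of the Cip/Kip family and holds cells in G1 by binding cyclin and CDK complexes. In the adult SEZ, stem cells give rise to transit-amplifying progenitors and these to neuroblasts, and a smaller part forms oligodendrocytes; exit from the cell cycle accompanies the onset of differentiation. SOX2, a transcription factor of stem and progenitor cells, and OLIG2, a transcription factor of transit-amplifying and oligodendrocyte progenitors, are fixed points for such cultures. Peaks of ATAC-seq at promoters and distal elements mark DNA free enough of nucleosomes for the transposase to enter.

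The sequences of the regions on which the comparison turned are given on the forward strand of GRCm38 (mm10). The upstream 250 bases of the Cdkn1b promoter, at chr6:134920151-134920400 from RefSeq, are shown because this was the one promoter called. Capitals mark CCAAT boxes and a GC box (GGGCGG), searched on both strands and chosen after the data were seen.
Cdkn1b promoter: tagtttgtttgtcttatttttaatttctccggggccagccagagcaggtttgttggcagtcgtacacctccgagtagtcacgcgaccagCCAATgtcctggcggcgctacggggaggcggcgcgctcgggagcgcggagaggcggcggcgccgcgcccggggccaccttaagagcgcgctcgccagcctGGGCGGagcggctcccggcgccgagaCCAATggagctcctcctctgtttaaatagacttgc
It held 2 CCAAT boxes and 1 GC box. Of 32851 RefSeq promoters of the same length, 33.8% held a CCAAT and 32.7% a GC box. The summit of a region upstream of Cdkn1b that stood higher in p27KO, at chr6:134916815-134917014, held none of the motifs searched.
Cdkn1b upstream region: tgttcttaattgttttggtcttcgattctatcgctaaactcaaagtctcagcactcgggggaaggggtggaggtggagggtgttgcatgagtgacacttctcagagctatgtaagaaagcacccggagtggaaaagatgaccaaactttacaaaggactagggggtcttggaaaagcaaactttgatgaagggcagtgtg

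The next sequences belong to the 3 distal regions that, with the Cdkn1b promoter, passed the test between genotypes in the PRO libraries and had no peak in any p27KO library. They are 100 bases around each summit, at chr14:122568967-122569066, chr6:147236792-147236891 and chr9:48217688-48217787, named by the nearest protein-coding gene. Capitals mark runs of at least 5 tandem copies of GATA or GGTA in any phase, on either strand.
Pcca region: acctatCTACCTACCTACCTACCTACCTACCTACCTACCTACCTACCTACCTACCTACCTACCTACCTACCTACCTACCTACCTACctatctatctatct
Pthlh region: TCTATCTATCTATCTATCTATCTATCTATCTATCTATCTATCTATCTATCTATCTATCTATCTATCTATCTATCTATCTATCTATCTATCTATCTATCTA
Nxpe4 region: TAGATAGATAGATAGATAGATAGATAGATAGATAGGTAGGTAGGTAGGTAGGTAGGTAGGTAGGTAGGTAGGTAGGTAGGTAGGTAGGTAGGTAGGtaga
In all 3 the reference sequence was a tetranucleotide repeat, and 100% of the 200 bases around each summit was soft-masked as repeat. The highest regions with a peak in both p27KO DIFF libraries and no WT DIFF library lay at chr8:23095549-23095658 and chr2:140237287-140237546. They held no such run, but the former was also mostly repeat, with 96.4% of it soft-masked against 8.08% of the latter.
Ank1 region: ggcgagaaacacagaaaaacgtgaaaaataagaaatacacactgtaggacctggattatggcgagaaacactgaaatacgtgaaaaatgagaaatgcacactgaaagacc
Ndufaf5 region: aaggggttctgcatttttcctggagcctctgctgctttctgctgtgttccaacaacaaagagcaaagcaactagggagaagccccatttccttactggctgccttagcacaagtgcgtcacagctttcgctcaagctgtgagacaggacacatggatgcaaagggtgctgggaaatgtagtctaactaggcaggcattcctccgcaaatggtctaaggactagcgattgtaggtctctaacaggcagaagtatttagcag

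The libraries differed in more than genotype. The WT DIFF lists held 60062, 55973 and 86325 autosomal peaks and the p27KO DIFF lists 65398 and 71006, so that the groups overlapped (difference 749, exact permutation test, two-sided p = 1, smallest reachable p = 0.1). Read depth is not known from peak lists; background pileups solved from the peak scores were 2.95, 3.32 and 3.72 in WT and 2.92 and 2.52 in p27KO (exact p = 0.2). The shortest peak listed was 95, 92 and 82 bases wide in WT and 81 and 88 in p27KO, so that narrow regions could not be listed alike in all libraries. Promoters of the 4 Y-linked genes Ddx3y, Eif2s3y, Kdm5d and Uty all had peaks in each of the 6 WT libraries and none in the 4 p27KO libraries. The promoter of Xist, the RNA of the inactive X chromosome, had a peak in all 4 p27KO and in 0 of 6 WT libraries. Genotype and the sex of the donor mice therefore cannot be told apart in the differences below. In GEO, the p27KO libraries carry a description of WT cells that contradicts their titles and genotype, and the Cdkn1b promoter, absent from all 4 p27KO lists as described below, went with the titles.

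At the onset of differentiation no region passed the adjusted threshold between genotypes in the main fit. Of 72496 regions, 0 (0%) passed an adjusted p of 0.05 with limma, and 3704 had an unadjusted p below it, 1580 higher (2.18%) and 2124 lower (2.93%) in p27KO; the smallest adjusted p was 0.690. With a variance prior that followed the mean rank, limma called 5 regions, 2 of them higher in p27KO. The lower ones were the Cdkn1b promoter and the regions near Pcca and Pthlh. With all 10 libraries in the fit it called 1, the Cdkn1b promoter. Without WT DIFF replicate 3 limma called 5 regions of 88 to 92 bases, all higher in p27KO. The shortest peaks listed in WT DIFF replicates 1 and 2 were 95 and 92 bases wide. Regions this narrow could therefore hardly be listed in the WT libraries that were left. The profiles of 2 libraries of the same genotype correlated across regions with a mean r of 0.831 (4 pairs), and those of different genotypes with 0.836 (6 pairs). These are correlations across regions, which are not independent. Peaks fell at promoters, within 3 kb of a start site, at shares of 28.6%, 30.4% and 22.3% in WT and 26.7% and 25.7% in p27KO (difference -0.864 percentage points, exact p = 0.8). The median difference was 0.0148 at 17603 promoter regions, -0.00624 at 27392 intronic, 0.00746 at 24220 intergenic and -0.00237 at 3281 exonic regions. The median half-width of a region's 95% interval was 0.646 on the score scale. It narrowed to 0.559 in the top 18124 regions by mean rank and was 0.441 for promoters. These intervals are not adjusted for the number of tests, so that differences well above these widths could also go uncalled with 5 libraries. The region near Pcca, for example, differed by -3.36 with an adjusted p of 0.925 with limma in the main fit.

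Of 14400 autosomal protein-coding promoters with a region, 12830 had a peak in all 5 libraries, and 1 (0.00694%) was called, that of Cdkn1b. A further 590 had an unadjusted p under 0.05; with Cdkn1b, 284 promoters were higher (1.97%) and 307 lower (2.13%) in p27KO. The next smallest adjusted p was 0.142. In 1514 promoters (10.5%) both p27KO libraries ranked above all 3 WT libraries, and in 1137 (7.9%) below. Some genes share a promoter region, as the 14400 promoters lay in 13163 regions.

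**Figure D1:**
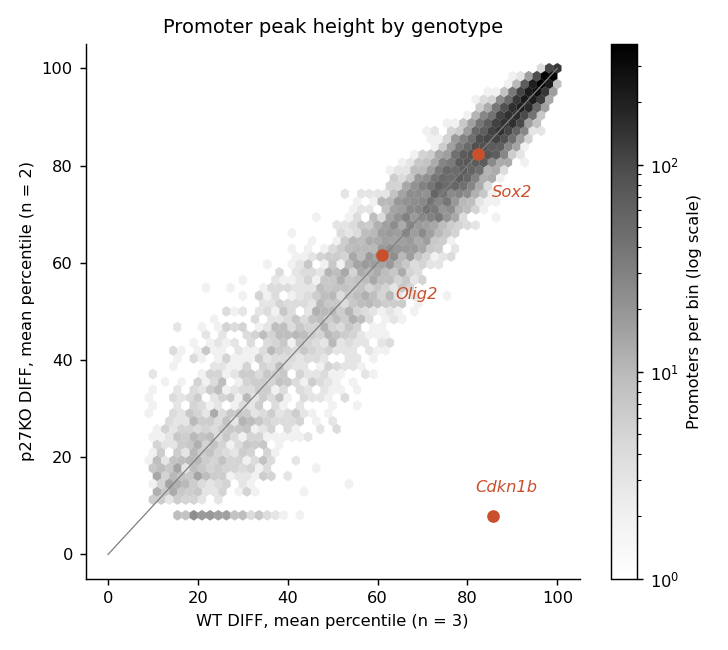
Mean within-library percentile of promoter peak height in WT DIFF (x axis, n = 3) and p27KO DIFF (y axis, n = 2) for 14400 promoters, binned, with the number per bin on a log grey scale and the line of equal percentiles. Promoters lay along the line, Sox2 and Olig2 among them, while Cdkn1b lay at 85.7 in WT and 7.95 in p27KO; the flat row at the bottom holds promoters without a peak in either p27KO library.

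The Cdkn1b promoter was open in WT and had no peak in p27KO. Its region, chr6:134919805-134920904, runs from position -596 to 503 relative to the start site, into the transcribed part of the gene (ENSMUSG00000003031, plus strand, chr6:134920401-134925513). The fold enrichment of its peak was 8.84, 9.32 and 12.3 in the WT DIFF libraries, and neither p27KO DIFF library had a peak. The percentiles were 83.1, 86.7 and 87.2 in WT and 9.79 and 6.10 in p27KO, the latter being the ties that regions without a peak share. The groups were far apart, and the difference in normal score was -2.49 ± 0.18 (SE), with a 95% interval of -2.89 to -2.09 and an adjusted p of 0.00319 among promoters. Among all 72496 regions its adjusted p was 0.690 in the main limma fit. It was 0.000764 with a variance prior that followed the mean, and 0.00227 with all 10 libraries in the fit. The size of the difference rests on the tied score of regions without a peak: where these regions took 1 fixed lowest score it was -1.62 and the adjusted p 0.303. Without WT DIFF replicate 2 or p27KO DIFF replicate 2 the adjusted p among promoters was 0.0544 and 0.0532, with differences of -2.47 and -2.36. In the PRO libraries, which the comparison did not use, the folds were 10.98, 11.6 and 10.6 in WT and no peak stood there in either p27KO library. Cdkn1b is the gene mutated in the p27KO mice. Altered DNA at the mutated gene and a change of accessibility cannot be told apart from peak lists, here or at nearby regions. Neither was tested.

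A second region at Cdkn1b moved the other way. At chr6:134916713-134917654, an intergenic stretch upstream of the start site (positions -3688 to -2747), the WT DIFF folds were 2.58 and 3.35 with no peak in replicate 2, and the p27KO folds were 7.64 and 7.38. All p27KO values lay above all WT values (percentiles 24.5, 14.5 and 12.5 in WT, 72.6 and 62.3 in p27KO), a difference of 1.42 ± 0.25 (SE) with an unadjusted p of 0.000715 and an adjusted p of 0.925. The PRO libraries, contrasted in the fit of all 10 libraries, had folds of 3.08, 2.57 and 3.09 in WT against 6.30 and 6.61 in p27KO, a difference of 0.86 ± 0.20 (SE), with an unadjusted p of 0.00139 and an adjusted p of 0.999. Peak intervals in the p27KO PRO libraries also lay between positions -1687 and -736, where no WT library had one. Another region, downstream of the gene at chr6:134928134-134929040, stood in all 5 libraries, with folds of 9.21, 10.1 and 12.1 in WT and 9.54 and 12.7 in p27KO and a difference of -0.13 ± 0.22 (SE). A region at 6738 to 7111 bases downstream of the start site had low peaks in WT DIFF replicates 1 and 3 (3.01 and 3.16) and in WT PRO replicate 3 (2.81), and none in p27KO. Of the 4 regions within 20 kb of the start site, 2 had an unadjusted p below 0.05, and these 2 differed in sign.

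**Figure D2:**
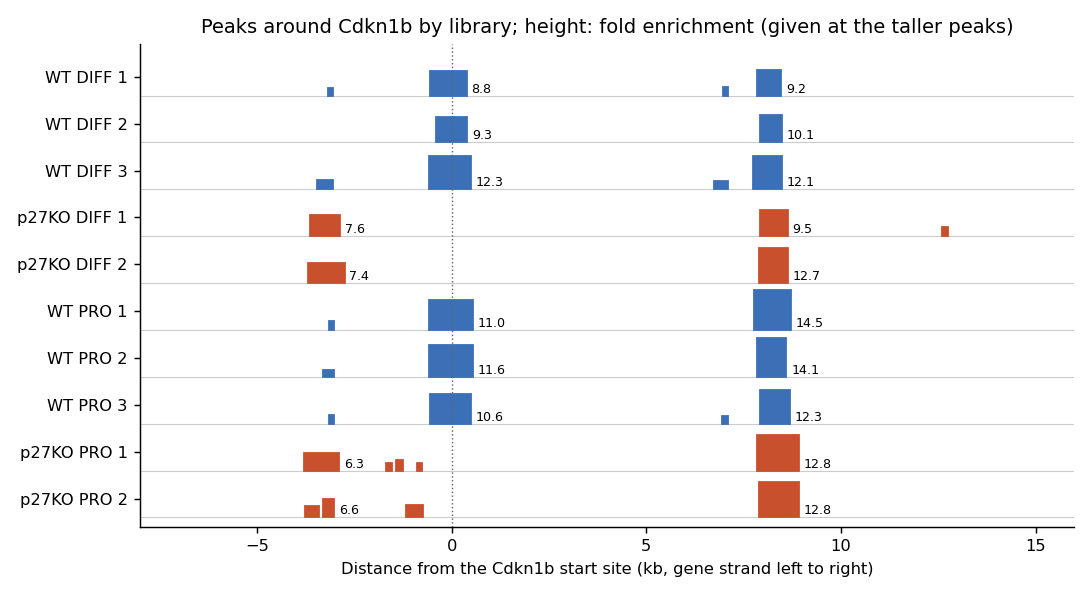
Peaks of the 10 libraries around Cdkn1b, each drawn from its start to its end in kb from the start site (dotted line), with height in proportion to fold enrichment, WT in blue and p27KO in orange. The promoter peak stood at 8.84 to 12.3 in every WT library and in no p27KO library, the region about 3 kb upstream was taller in all p27KO libraries, and the peak about 8 kb downstream was present in all 10.

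The other CDK inhibitors showed no change that passed the test. Of the 7 genes of the family, all had a promoter region, 5 with a peak in all 5 libraries; 5 differences were positive, 2 negative, and 1, Cdkn1b, was called (0.00694% of all promoters). Cdkn2a, which encodes the INK4A and ARF proteins, ranked at percentiles 87.6, 69.7 and 76.5 in WT and 40.3 and 63.6 in p27KO, with both p27KO values below the lowest WT value. Its difference was -0.75 ± 0.25 (SE), with an unadjusted p of 0.0158 and an adjusted p of 0.999, and it was -0.814 in the PRO libraries. Cdkn1c, the gene of p57 and the closest relative of p27, ranked at 62.8, 42.8 and 70.8 in WT and 66.9 and 68.9 in p27KO, with groups that overlapped. Cdkn1a, the gene of p21, had a peak in 1 WT and 1 p27KO library and lay low in all 5 (percentiles 4.67 to 30.9). Cdkn2b, Cdkn2c and Cdkn2d, which encode further INK4 inhibitors, differed by 0.13, 0.11 and 0.10, each by less than its SE.

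**Figure D3:**
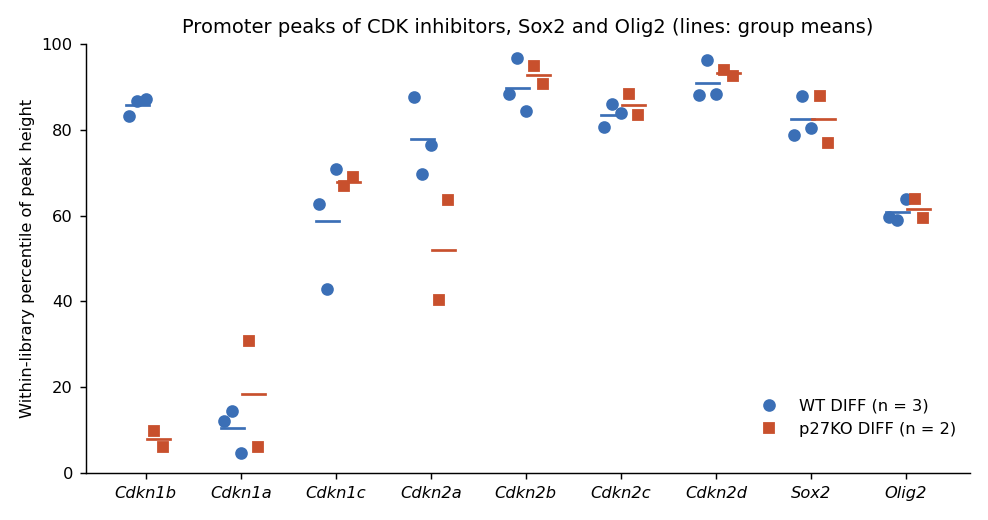
Within-library percentile (0 to 100) of the promoter peak of 9 genes in the 3 WT DIFF (circles) and 2 p27KO DIFF (squares) libraries, with lines at the group means. Cdkn1b separates completely, Cdkn2a is lower in both p27KO libraries, and the other 7 promoters overlap between genotypes.

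The Sox2 locus held peaks in both genotypes, with no difference that passed the test. Its promoter region, chr3:34649232-34650539, had folds of 7.97, 9.67 and 10.6 in WT and 11.3 and 10.1 in p27KO. The percentiles were 78.9, 88.0 and 80.5 in WT and 87.9 and 77.0 in p27KO, and the groups overlapped. The difference was 0.01 ± 0.21 (SE), with a 95% interval of -0.46 to 0.48, and its sign changed under several alternatives. Within 20 kb of the Sox2 start site 9 intervals held a peak, 7 of them in at least 2 libraries and 5 in all 5. The differences of these 7 ran from -0.30 to 0.19, and 0 had an unadjusted p below 0.05. The region at positions 3544 to 3694 had low peaks in WT DIFF replicates 1 and 3 (2.87 and 2.49) and none in p27KO DIFF. It had a peak in every PRO library of both genotypes. The region at -9560 to -9446 had low peaks in WT DIFF replicates 2 and 3 (2.65 and 2.55) and none in p27KO DIFF. The widest element upstream, chr3:34642328-34642974 in an annotated intron, had folds of 6.80, 5.92 and 10.1 in WT and 9.23 and 9.63 in p27KO.

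At Olig2 the promoter region chr16:91224860-91225796 had folds of 5.43, 4.92 and 7.50 in WT and 6.36 and 7.05 in p27KO. The percentiles were 59.8, 58.9 and 64.0 in WT and 63.8 and 59.5 in p27KO, and the groups overlapped. The difference was 0.02 ± 0.17 (SE), with a 95% interval of -0.36 to 0.40. All 3 consensus regions within 20 kb had a peak in all 5 libraries and differed by -0.24 to 0.18. A distal element from 7917 to 8464 bases downstream of the start site had folds of 3.38, 3.12 and 3.29 in WT and 3.78 and 4.26 in p27KO, where the higher folds did not pass the test on ranks (difference 0.18 ± 0.29).

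Genes of neural progenitors had open promoters in both genotypes. Of 37 listed genes 36 were tested, 34 with a peak in all 5 libraries; 24 differences were positive and 12 negative, 0 were called and 0 had an unadjusted p below 0.05 with limma. The median difference was 0.0502, against 0.0163 over all promoters, and in 4 genes both p27KO libraries ranked above all WT libraries (10.5% of all promoters did so) and in 1 below (7.9%). Nfix, a nuclear factor I transcription factor, lay highest of the list at 0.56 ± 0.31 (SE), where WT DIFF replicates 1 and 2 had no peak. Fgfr2, a receptor of FGF, lay at 0.27 ± 0.22. The lowest were Gli2, a transcription factor of Hedgehog signalling, at -0.19 ± 0.20 and Nr2e1, the nuclear receptor TLX of neural stem cells, at -0.19 ± 0.17.

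Cell cycle genes had open promoters in all libraries, and none was called. All 41 genes of the G1/S list were tested and had a peak in all 5 libraries, with 27 positive and 14 negative differences, a median of 0.0299, 0 called and 0 with an unadjusted p below 0.05. Rrm1, a subunit of ribonucleotide reductase, lay highest at 0.50 ± 0.23 (SE), followed by the atypical E2F gene E2f8 at 0.31 ± 0.18. Mcm4, a subunit of the replicative helicase, was lowest at -0.37 ± 0.20, next to E2f1 at -0.36 ± 0.19. E2f1 ranked at 92.7, 94.4 and 97.2 in WT and at 89.6 and 90.9 in p27KO, so that the groups did not overlap. In 4 genes of the list, E2f8 among them, both p27KO libraries ranked above all WT libraries (10.5% of all promoters did so). In 2 genes, E2f1 among them, they ranked below (7.9%).

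Of the 27 G2/M genes, all tested, 11 differences were positive and 16 negative, with a median of -0.0335. In 8 of them both p27KO libraries ranked below all WT libraries (7.9% of all promoters did so), and in 4 above (10.5%). An unadjusted p below 0.05 was met by 4 of the lower genes and 2 of the higher ones, and 0 were called. Of all promoters 2.13% were lower and 1.97% higher at this threshold. Kif11, a mitotic kinesin, ranked at 99.6, 98.9 and 98.9 in WT and at 97.8 and 94.5 in p27KO (difference -0.61 ± 0.21 (SE), adjusted p = 0.999). Ttk, a kinase of the spindle checkpoint, ranked at 99.01, 98.3 and 99.2 in WT and at 94.7 and 97.8 in p27KO (-0.47 ± 0.20). In the other direction Mybl2, a transcription factor of proliferating cells, ranked at 94.9, 98.6 and 99.1 in WT and at 99.7 and 99.6 in p27KO (0.60 ± 0.23), and Aurka, a mitotic kinase, differed by 0.45 ± 0.17. All these promoters were among the most open of the genome in every library, where small changes of percentile make large changes of score.

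Lineage genes lay on both sides of 0. Of 33 neuronal genes tested of 35, 17 differences were positive and 16 negative (median 0.00631), both p27KO libraries ranked above all WT libraries in 2 promoters (10.5% of all) and below in 2 (7.9%), and 1 was lower with an unadjusted p below 0.05 (2.13% of all). That gene was Stmn2, which encodes a neuronal microtubule regulator, with percentiles of 29.4, 46.9 and 27.02 in WT and 9.79 and 19.6 in p27KO (-0.66 ± 0.23 (SE), adjusted p = 0.999). Gad1, an enzyme of GABA synthesis, lay at -0.42 ± 0.28, while Sp8, a transcription factor of olfactory interneurons, was highest at 0.65 ± 0.30, with peaks in both p27KO and in no WT library, before Myt1 at 0.52 ± 0.29. The 18 tested of 22 oligodendrocyte genes gave 9 positive and 9 negative differences (median -0.0134). Nkx2-2, a transcription factor of oligodendrocyte progenitors, ranked at 31.3, 14.5 and 26.6 in WT and at 39.6 and 46.1 in p27KO (0.54 ± 0.21, unadjusted p = 0.0302). Myrf, a regulator of myelin genes, ranked at 78.9, 84.5 and 85.2 in WT and at 91.4 and 89.3 in p27KO (0.35 ± 0.17). Zfp488 and Gpr17, of the same lineage, were lowest at -0.56 ± 0.31 and -0.45 ± 0.35. The 19 tested of 21 astrocyte genes gave 9 positive and 10 negative differences (median -0.00372), from Aqp4, a water channel, at 0.52 ± 0.37 and Aldoc at 0.33 ± 0.19 to Gfap, the glial intermediate filament, at -0.33 ± 0.19 and S100b at -0.62 ± 0.34. Of these 3 lineage lists 0 genes were called, and 1 neuronal and 1 oligodendrocyte gene had an unadjusted p below 0.05. The oligodendrocyte gene was higher in p27KO, as were 1.97% of all promoters at this threshold.

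Most microglial and endothelial markers lacked a promoter region, while most mesenchymal markers had one. Of 20780 autosomal protein-coding genes, 14400 had a region. Of 14 microglial markers 5 had a promoter region, and each library had a peak at 4 or 5 of them, with summed folds of 25.3 to 37.1 in WT and 23.7 and 33.1 in p27KO. All 5 differences were negative (median -0.155), as were 6707 of all 14400 promoters. In 1, Aif1, the unadjusted p was 0.0397 with limma, and 2.13% of all promoters were lower with an unadjusted p below 0.05. Of 12 endothelial markers 2 had a region, Flt1 and Kdr, and of 13 mesenchymal markers 9, with differences from -0.34 to 0.25. The groups' summed folds overlapped in the microglial and mesenchymal lists, and in the endothelial list they were 13.0 to 14.2 in WT and 15.3 and 19.6 in p27KO. These sums carry the scale of each library, whose median fold was 5.31, 5.19 and 5.08 in WT and 5.35 and 5.96 in p27KO. By rank the 2 endothelial differences were 0.085 and 0.28, and 0 had an unadjusted p below 0.05. Any part of such cells in the results was not tested. Genes that should be closed in neural cells, from other germ layers, had a region in 2 of 14, Apoa1 and Myod1. Myod1, the muscle regulator, had peaks in 1 WT and both p27KO libraries and a difference of 0.87 ± 0.20 (SE, unadjusted p = 0.00217, adjusted p = 0.840). In bulk cultures, fewer cells of a type and a weaker peak per cell cannot be told apart.

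**Figure D4:**
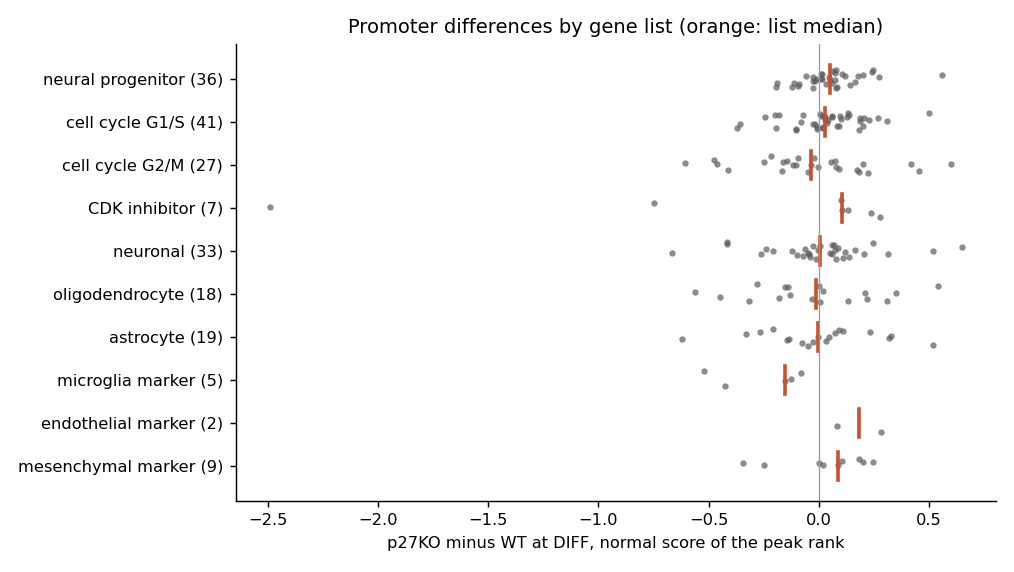
Difference of promoter score, p27KO minus WT at DIFF, for each tested gene of 10 lists (points, spread vertically at random, with the number of genes) and the list median (orange line). Medians lay between -0.155 and 0.183, and the point at -2.49 is Cdkn1b.

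Among promoters with a peak in all 5 libraries and no overlap between genotypes, those with the largest differences are given as a description, since they were chosen by size. Higher in p27KO were the promoter shared by BC055324 and Mettl18, a histidine methyltransferase gene (0.86 ± 0.24 (SE)), and those of Glb1l2 (0.76 ± 0.22), Ndst1, an enzyme of heparan sulfate synthesis (0.75 ± 0.18), Rcn2 (0.74 ± 0.18) and Shcbp1 (0.73 ± 0.19). Ndst1 ranked at 35.4, 45.9 and 44.8 in WT and at 74.4 and 66.7 in p27KO. Lower in p27KO were Cyp2r1, a vitamin D hydroxylase, at -1.14 ± 0.24, Lnx1, a ubiquitin ligase that binds NUMB, at -0.87 ± 0.20, S100a4 at -0.81 ± 0.23, 9130019O22Rik at -0.78 ± 0.19, Pex7 at -0.77 ± 0.26 and Mettl7a1 at -0.76 ± 0.21. Cyp2r1 ranked at 78.2, 62.8 and 48.3 in WT and at 22.2 and 21.2 in p27KO. Their adjusted p-values ran from 0.611 to 0.999. In the PRO libraries 10 of these 11 regions had a difference of the same sign, from -0.84 in Cyp2r1 to 0.18 in Glb1l2, and that of BC055324 and Mettl18 was -0.09. Some of the 10 lay near 0 at PRO, such as S100a4 at -0.021 and Mettl7a1 at -0.043. Of all promoters 53.3% had the same sign at both stages. Among promoters with an unadjusted p below 0.05 at DIFF, 54.6% of the higher and 66.8% of the lower ones did. A promoter without a peak in any PRO library, such as that of Aldoc, took a PRO difference of -0.089 from tied scores alone. It then counted as the same sign if lower at DIFF and as the opposite sign if higher. The median PRO difference of the lower promoters was this same value, so that these shares do not measure recurrence.

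Regions listed in one genotype alone were rare. Peaks stood in both p27KO and in no WT DIFF library at 642 regions (0.886%), and in all WT and no p27KO DIFF library at 445 (0.614%). With the lists cut to their top 57000 peaks these were 735 and 564. The counts rest on single libraries: leaving out WT DIFF replicate 3, the longest list, gave 3890 regions in p27KO alone, and leaving out any 1 of the 5 libraries gave between 689 and 2207 regions in WT alone. The p27KO regions were low, at a median percentile of 27.2 over the libraries with a peak, and had a median width of 203.5 bases against 484 over all regions. The WT regions were at 33.7 and 332 bases. Regions with a peak in any 2 DIFF lists had a median width of 226 bases, and those with a peak in 3 lists 297. The widths of both sets were thus near those of regions in as many lists. Of the p27KO regions 11.2% and of the WT regions 13.5% were promoters, against 24.3% of all regions. Within 10 Mb of Cdkn1b lay 3 of the p27KO and 2 of the WT regions, shares of 0.467% and 0.449% against 0.937% of all regions.

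The p27KO regions of highest rank lay at position -463 of Ank1 (chr8:23095549-23095658), an erythroid and muscle ankyrin gene, with folds of 7.90 and 12.2, and in introns near Ndufaf5 (chr2:140237287-140237546; 5.10 and 9.37) and Atrnl1 (chr19:57926572-57926662; 6.12 and 6.82). The next was intergenic near Fam169a (chr13:97051175-97051450; 5.35 and 7.38). At the last 3 of these, 2 or 3 of the WT PRO libraries also had a peak. The Ank1 region was 96.4% soft-masked as repeat. The WT regions of highest rank were an intron of Pcca (chr14:122568954-122569111; 12.1, 20.6 and 12.7), the Cdkn1b promoter, and intergenic regions near Pthlh (chr6:147236665-147236926; 5.82, 10.6 and 10.8) and Igsf11 (chr16:39052636-39052870; 6.45, 8.79 and 6.42). All 4 had a peak in the 3 WT PRO libraries and in neither p27KO PRO library.

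The PRO libraries were then used to ask which of these differences recurred in libraries that had played no part in choosing them. Over the same 72496 regions, the PRO contrast of p27KO with WT called 4 regions (0.00552%), and all 4 were lower in p27KO. They were the Cdkn1b promoter (-2.32 ± 0.18 (SE), adjusted p = 0.00473) and the repeat regions at Pcca (-4.36 ± 0.41, adjusted p = 0.0216), Pthlh (-2.80 ± 0.30, adjusted p = 0.0307) and Nxpe4 (-2.23 ± 0.23, adjusted p = 0.0307), printed above. The Nxpe4 region, chr9:48217582-48217783 in an intron, had folds of 6.32, 7.404 and 5.93 in WT DIFF and 10.8, 10.2 and 10.7 in WT PRO. None of the 4 had a peak in any p27KO library, and the Pthlh region lay 12.3 Mb from Cdkn1b on the same chromosome. Among promoters the PRO contrast called 3 (0.0208%), Cdkn1b, Cox6b2 and Zkscan7, all lower in p27KO. Cox6b2 was open in both genotypes at DIFF, with folds of 5.74, 6.11 and 6.63 in WT and 5.90 and 6.61 in p27KO. The test of the difference between stages called 0 of 72496 regions (3012 with an unadjusted p below 0.05) and 0 of 14400 promoters (568 with an unadjusted p below 0.05).

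Of the 642 regions with p27KO peaks alone at DIFF, 26 (4.05%) also had peaks in both p27KO and no WT library at PRO, as did 2.29% of the regions with a peak in 2 DIFF lists and 0.902% of all regions. The opposite pattern at PRO was held by 3 of the 642 (0.467%). Of the 445 with WT peaks alone, 12 (2.70%) had peaks in all WT and no p27KO library at PRO, against 0.586% of the regions with a peak in 3 DIFF lists and 0.298% of all regions. The opposite pattern, peaks in both p27KO and no WT library at PRO, was held by 8 of the 445 (1.80%), against 1.79% of the regions with a peak in 3 DIFF lists. The 26 and the 12 regions, named after their values were seen, differed in sequence. In 9 of the 12, the 200 bases around the summit held a tandem run of at least 5 copies of GATA or GGTA, and in 0 of the 26. These 9 lay nearest to Pcca, Pthlh, Nxpe4, Igsf11, Rims1, Cdh6, Bbip1, Zfp608 and 1700012A03Rik, and the others to Cdkn1b, Pgm2 and Matn1. Over all 72496 regions only 17 windows (0.0234%) held such a run. Peaks stood at 14, 14 and 16 of these 17 in the WT DIFF libraries and at 4 and 5 in the p27KO DIFF libraries. At PRO they stood at 13, 16 and 14 in WT and at 4 and 4 in p27KO. The gap rests on the 9 regions already chosen for having peaks in WT alone. At the other 8 regions peaks stood at 5, 5 and 7 in WT DIFF and 4 and 5 in p27KO DIFF, and at 4, 7 and 5 in WT PRO and 4 and 4 in p27KO PRO, and 4 of the 8 differences at DIFF were negative and 4 positive, so that the groups overlapped there. The runs were recognised after the sequences had been read, and no test is given. Such repeats are known from the mouse Y chromosome as well as from autosomes. In the reference, runs covered 724 bases per Mb of the Y chromosome, 547 of autosomes and 335 of the X chromosome. The part of reads from the Y chromosome in these peaks was not tested, and the WT libraries were those with Y-linked peaks.

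**Figure D5:**
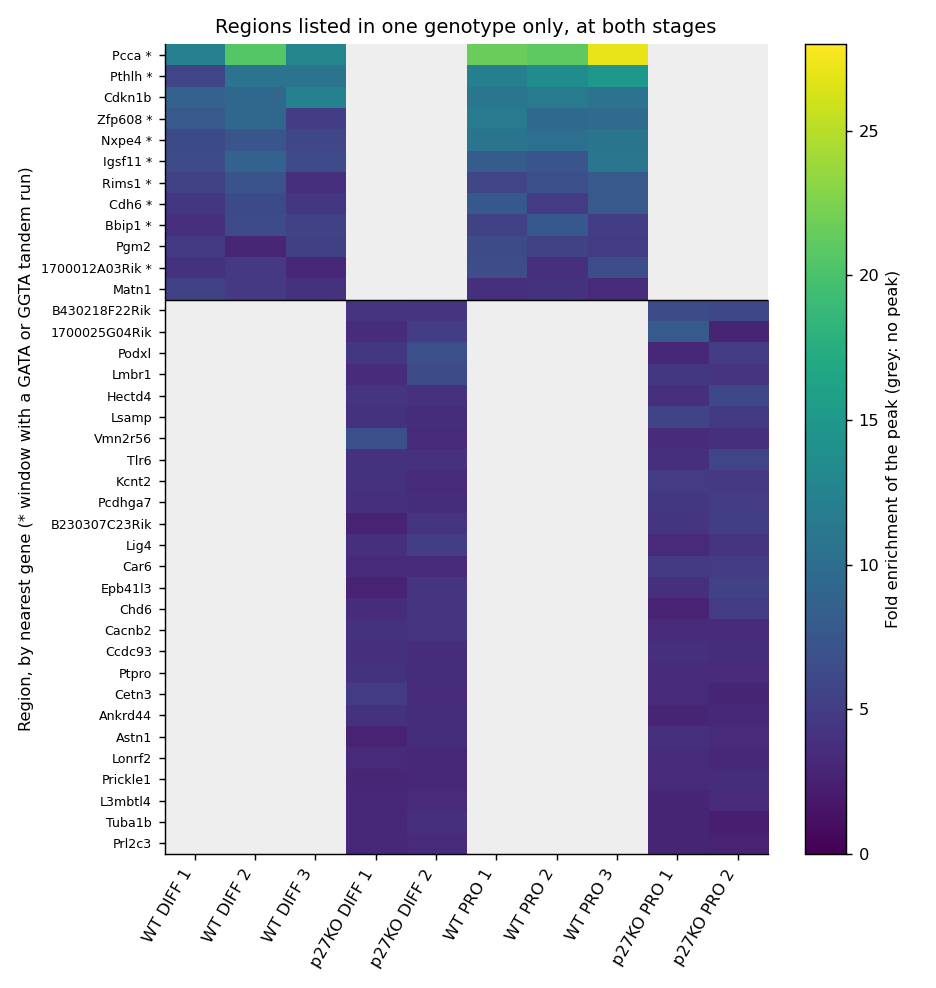
Fold enrichment (colour scale) in the 10 libraries of the 12 regions with peaks in all 6 WT and no p27KO library, above the line, and of the 26 with peaks in all 4 p27KO and no WT library, below it, ordered by mean fold and named by the nearest gene. Grey cells have no peak, and asterisks mark the 9 windows with a tandem run, all of them above the line, where folds reach 27.1 in the Pcca region.

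The 26 regions listed in p27KO alone at both stages had folds from 2.37 to 7.91. They included 4 regions within 3 kb of a start site, nearest to Tlr6, Pcdhga7, Ankrd44 and Tuba1b. At Tlr6, a Toll-like receptor gene (chr5:64959882-64960170), the folds were 4.08 and 3.98 at DIFF and 3.83 and 5.88 at PRO. Ankrd44 and Tuba1b each had another promoter region with a peak in all 5 DIFF libraries. The highest by mean fold was intergenic near B430218F22Rik (chr13:118269192-118269377), with folds of 4.33 and 4.26 at DIFF and 6.47 and 6.12 at PRO.

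Transcription factor motifs were counted in the regions listed in one genotype alone, as a description. The AP-1 motif TGANTCA was held by 7.17% of the p27KO and 7.19% of the WT regions, against 6.31% of all, within 200 bases around the summit on either strand. The SOX motif ACAATGG was held by 4.36%, 2.92% and 3.54%, and the E-box CAGCTG by 19.2%, 20.2% and 19.5% in the same order. The POU octamer ATGCAAAT was held by 1.56%, 0.899% and 1.82%, the TEAD motif GGAATGT by 6.07%, 4.04% and 4.84%, and the CTCF core AGGGGGC by 7.01%, 5.17% and 8.23%. The E2F motif TTCCCGCC stood in 1 of the p27KO and 2 of the WT regions, against 0.810% of all, and the ETS motif CCGGAAGT in 3 and 0, against 1.39% of all. Both of these were as rare among the 21517 regions with peaks in 2 or 3 libraries, at 0.316% and 0.242%, from which the regions of one genotype necessarily came. Windows over 50% soft-masked made up 9.81% of the p27KO and 12.1% of the WT regions, 7.63% of those with peaks in 2 or 3 libraries and 4.42% of all.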

How the data were processed

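Peak lists of 10 ATAC-seq libraries were used, 5 of them in the comparison. According to the methods and labels, the authors checked reads with FastQC and MultiQC, trimmed them with cutadapt and Trimmomatic, aligned them to GRCm38 with Bowtie2, marked duplicates and called peaks per library with MACS2 at an FDR of 0.05; versions are not given in the sources used here. The deposited columns hold the fold enrichment of each peak (a ratio to local background) and its −log10 p-value and −log10 q-value. No read counts were used here, so that depth is unknown and small peaks may be missing from shallower libraries.

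Peaks overlapping by at least 1 base were merged, and regions with a peak in at least 2 of 5 lists were kept. Within each library regions were ranked by their highest fold enrichment, regions without a peak sharing the mean of the lowest ranks, and normal scores of the ranks were tested with limma 3.58.1 (R 4.3.3) with Benjamini-Hochberg adjustment over all regions, or all promoters, at 0.05. The promoter of a gene was the region whose summit lay nearest to one of its GENCODE M21 start sites, within 3 kb (the study used M18). The PRO contrast came from a fit of all 10 libraries on the same regions. Motifs and repeats were counted in Python 3.11.15 on the GRCm38 sequence, 200 bases around each summit. The genes named were Cdkn1b, Sox2, Olig2, the CDK inhibitors, the highest and lowest of each list, and the promoters and regions with the largest differences among those whose groups did not overlap; genes beyond these were chosen after their values were seen. The members and lists were chosen with earlier results of these data known. Scripts were tested on simulated data. Alternatives were equal list lengths (57000 peaks), stricter peaks, other merging, ranking and scoring, other samples in the fit, a replicate block and leaving out each library.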

Additional observations from a re-analysis of the deposited data

Results flagged for a closer look

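The promoter of Xist, on the X chromosome and so outside the autosomal comparison, had a peak in 4 p27KO libraries and in 0 of the 6 WT libraries. The 4 Y-linked genes examined had a promoter peak in each WT library and in 0 of the p27KO libraries. Genotype and donor sex cannot be told apart in these libraries.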

How the results depend on the processing

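The Cdkn1b promoter difference kept its direction under all alternatives in which it was tested. It missed the threshold with 1 fixed lowest score for regions without a peak (-1.62), and without WT DIFF replicate 2 or p27KO DIFF replicate 2; leaving out each library gave -2.62 to -2.36. The promoters called numbered 0 with that fixed score, 0 among promoters with a peak in all 5 lists, where Cdkn1b has none by construction, and 2 with all 10 libraries in the fit; leaving out each library gave 0 to 1. The regions called numbered 5 with a variance prior that followed the mean, 1 with all 10 libraries and 0 to 5 on leaving out each library. The Sox2 difference turned negative when ranked by −log10 p (-0.053), as a plain percentile (-0.0059 points) and on leaving out libraries (-0.21 to 0.22), and that of Olig2 when ranked by −log10 p (-0.0049) and on leaving out libraries (-0.037 to 0.076); the cause was not tested. Regions with p27KO peaks alone numbered 642 to 3890 on leaving out each library; the 642 without either p27KO library is fixed, since a region needs a peak in 2 lists. Those with WT peaks alone numbered 689 to 2207, where fewer lists have to lack or hold a peak. The difference in promoter share ran from -3.27 to 0.788 percentage points, positive without WT DIFF replicate 2.

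The replicate numbers are only shared: same-numbered libraries deviated together with r = 0.048 and -0.041 across regions. The replicate block by construction leaves WT DIFF replicate 3 without a partner. With it the same 5 regions were called as without that library, the Cdkn1b difference was -2.46 and that of Sox2 -0.033. Restricting the lists to peaks of at least 95 bases or to regions not mostly soft-masked, both chosen after seeing the data, left 606 and 579 regions in p27KO alone and 495 and 391 in WT alone.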
